A study of Homo sapiens with 3 samples.

Results

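The genes of the cornified envelope and of desquamation were followed across the transcriptome of Cal-33 cells, an established line of human tongue squamous cell carcinoma. The set held 43 gene symbols, listed by name with no threshold on a measured value, and all 43 had a row among the 28890 genes of the deposited expression table. Of these, 28 reached 1 TPM (transcripts per 1000000 transcripts) in 1 or more libraries. RNA was taken 72 h after transfection with 1 of 3 siRNAs. One was a control (siControl), another targeted the tumour suppressor p53 (sip53), and the last targeted BACH1 (siBACH1), a heme-binding repressor of transcription. Each treatment was sequenced as 1 library from the same parental line, labelled wild type. No difference below therefore has a replicate check, no test or error can be given, and every value describes these 3 libraries.

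In stratified epithelium, keratinocytes that leave the basal layer replace their membrane by a cornified envelope. Transglutaminases cross-link precursor proteins such as involucrin, loricrin and the small proline-rich proteins (SPRR) onto a scaffold of envoplakin and periplakin, and lipids are then attached to its outer face. Corneodesmosomes hold the dead cells together until kallikrein proteases cut them, and inhibitors such as LEKTI, the product of SPINK5, restrain that cutting. Wet mucosa such as the tongue and cheek shares part of this programme, with involucrin, SPRR3 and cystatin A, and uses less of the loricrin and filaggrin of skin.

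The BACH1 transcript was at 15.2 TPM in siControl, 19.6 TPM in sip53 and 4.30 TPM in siBACH1, so it was lowest in the library labelled with its siRNA. The transcript of the other target is not reported here. Listed values summed to between 978371 and 979148 TPM per library, and between 12113 and 12198 genes reached 1 TPM. TPM keeps no sequencing depth, so no counting interval can be attached to any level. All 7 genes listed as markers of stratified squamous epithelium were at 39.8 TPM or more in every library. They were TP63, KRT5, KRT14, KRT6A, KRT13, CDH1 and EPCAM, and how specific each is to that epithelium was not tested. Their sum was 10225 TPM in siControl, 9444 in sip53 and 6098 in siBACH1. Of the other lineages, 2 of 7 fibroblast, 2 of 7 immune, 2 of 4 endothelial and 1 of 4 melanocyte markers reached 1 TPM in any library. The highest of these were CD68, also a lysosomal protein of many cells, at 32.0 to 38.3 TPM, and the endothelial cadherin CDH5 at 16.0 to 18.7 TPM, while PTPRC, CD3E and COL1A2 stayed under 0.2 TPM. Summed fibroblast markers were at 4.18, 5.15 and 4.74 TPM, immune markers at 37.5, 34.6 and 41.1 TPM, and endothelial markers at 17.9, 18.3 and 20.3 TPM in siControl, sip53 and siBACH1.

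Cal-33 cells held the inhibitors CSTA, SLPI and CSTB and several of the proteases at high levels. Together the 43 genes summed to 1578 TPM in siControl, 1534 TPM in sip53 and 1559 TPM in siBACH1. In siControl 6 genes exceeded 100 TPM, and the pair CSTA and SLPI alone made up 38.3% of the sum there. At the other end, 15 genes stayed under 1 TPM in every library. CRCT1, TGM3, ALOX12B and MAL were listed at 0 in all 3 libraries, and FLG, SPRR2E, CRNN, TGM5, KLK13, A2ML1, CDSN, DSG1, DSC1, SBSN and RHCG reached at most 0.888 TPM. The programme was thus present only in part: scaffold, inhibitor and kallikrein transcripts were present, while FLG was listed at 0.0246 TPM or less and DSG1 at 0.0635 TPM or less.

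**Figure D1:**
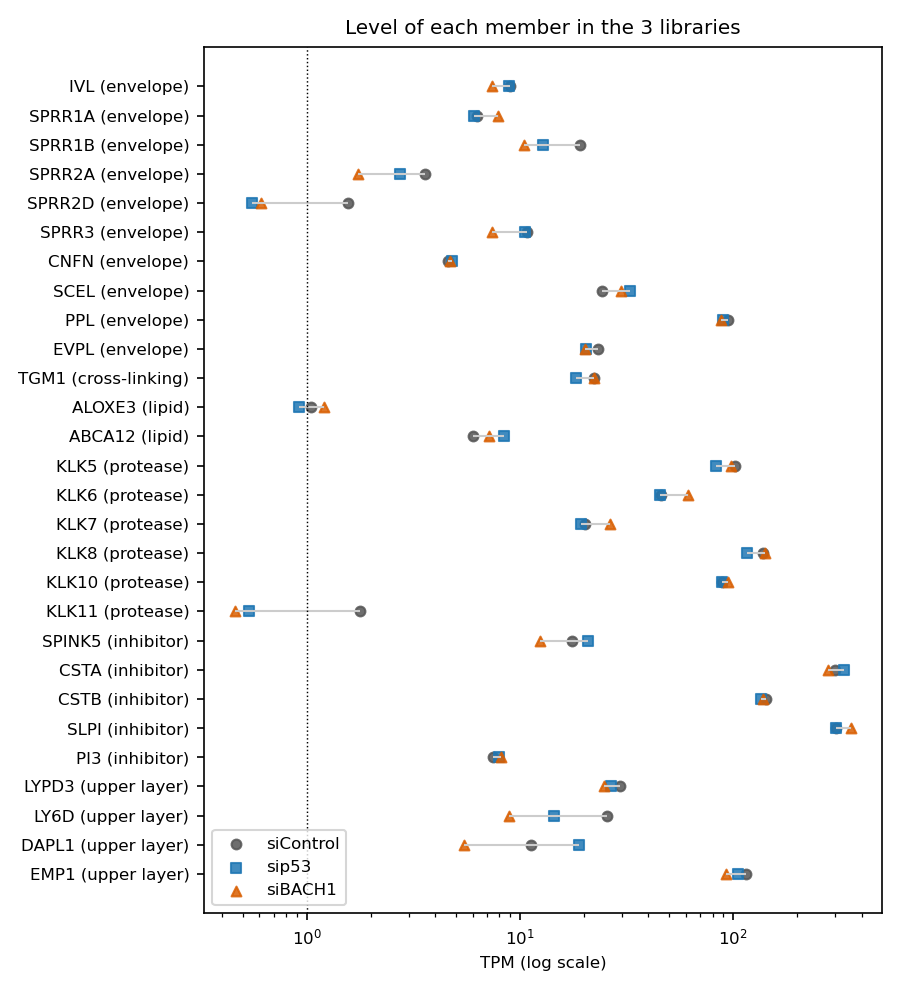
TPM on a log axis for the 28 genes that reached 1 TPM, with 1 symbol per library and the gene's role in brackets. A grey line joins the lowest and the highest library of a gene, and the dotted line is 1 TPM. CSTA and SLPI lie near 300 TPM in every library, while KLK11, DAPL1, LY6D, SPRR2D and SPRR2A have the longest lines.

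Libraries were compared as log2 of (TPM + 1) in one over (TPM + 1) in the other. Genes with 1 TPM or more in 1 or both libraries counted as measured, and a difference of 1.5-fold or more on this scale, 0.58 in log2 units, was counted as higher or lower. With siBACH1, 6 of 28 measured genes were lower than siControl by that fold (LY6D, DAPL1, KLK11, SPRR1B, SPRR2A and SPRR2D) and 0 were higher. Over all 12437 measured genes, 3.69% were lower by that much and 1.78% higher. With sip53, 3 of 28 were lower (KLK11, LY6D and SPRR2D) and 1 was higher (DAPL1), against 2.88% lower and 1.54% higher of 12412 measured genes. Between the knockdowns, 3 of 26 were lower in siBACH1 than in sip53 (DAPL1, SPINK5 and LY6D) and 0 were higher, against 3.18% lower and 2.84% higher of 12390 genes. SPRR2D and KLK11 were measured only through siControl, where alone they passed 1 TPM, so their place among the lower genes follows in part from that minimum.

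By its median change the set lay close to the rest of the transcriptome. The median log2 change of the measured genes was -0.07 in sip53 and -0.09 in siBACH1 against siControl, beside -0.07 and -0.08 over all measured genes. Rescaling TPM to a median ratio of 1 turned the sip53 median to 0.005 and brought the siBACH1 median to -0.004. Altogether 7 of the 28 genes passed 1.5-fold in 1 or more of the 3 comparisons, and 21 passed it in none. Over all measured genes, between 1.54% and 3.69% passed it in a given direction of a single comparison. Their share over the 3 comparisons together was not counted. The control library was the highest for 13 of the 28 genes, siBACH1 for 9 and sip53 for 6, and siBACH1 was the lowest for 13. Among all 12564 genes that reached 1 TPM in any library, siControl was highest for 47.4%, siBACH1 for 24.1% and sip53 for 28.6%. The siBACH1 library was lowest for 42.0% of them. Both knockdowns were set against the same siControl library, so their differences from it are not independent.

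**Figure D2:**
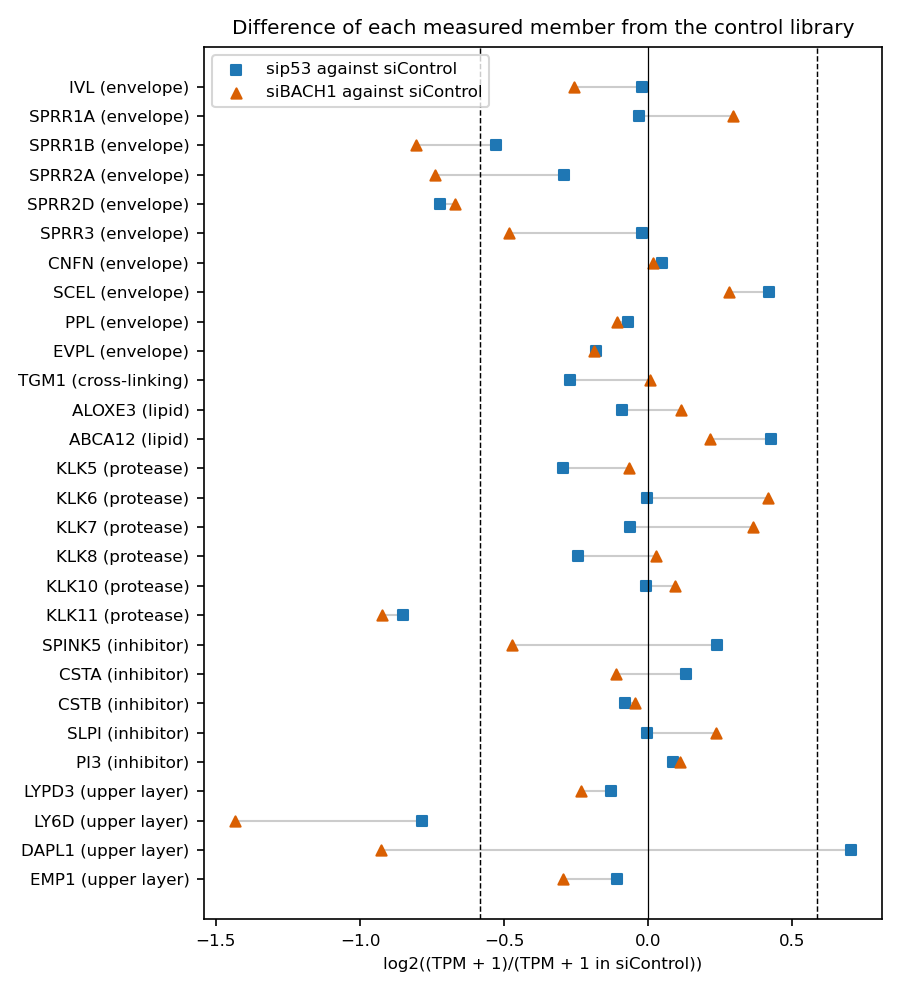
Difference of each measured gene from siControl, as log2 of (TPM + 1) over (TPM + 1), for sip53 (squares) and siBACH1 (triangles). Dashed lines mark 1.5-fold. LY6D at -1.43 and DAPL1 at -0.93 in siBACH1 lie far to the left, DAPL1 at 0.70 in sip53 is the only symbol beyond the right dashed line, and the kallikreins other than KLK11 lie between the dashed lines.

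Of the 10 measured envelope precursor and scaffold genes, 3 were at least 1.5-fold below control in siBACH1, beside 3.69% of all measured genes. All 3 were SPRR genes. SPRR proteins are short, proline-rich cross-bridges of the envelope, and their genes lie side by side in the epidermal differentiation complex, where 10 of the 43 genes sit between positions 152302165 and 153094526 of chromosome 1 (GRCh38). SPRR1B (chromosome 1, 153031203 to 153032900, plus strand) was at 19.02 TPM in siControl, 12.9 TPM in sip53 and 10.5 TPM in siBACH1. Its level was 1.82-fold lower in siBACH1 (log2 change -0.81) and 1.48-fold lower in sip53 (log2 change -0.53, short of the threshold). SPRR2A (153056120 to 153057512, minus strand) was at 3.57, 2.73 and 1.74 TPM in siControl, sip53 and siBACH1, with log2 changes of -0.29 in sip53 and -0.74 in siBACH1, the latter -0.35 and short of the threshold with a pseudocount of 5 TPM. In both genes the control was highest and siBACH1 lowest.

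SPRR2D and SPRR2E were close to the 1 TPM minimum, so their ratios rest on very low levels. SPRR2D was at 1.57 TPM in siControl, 0.555 TPM in sip53 and 0.611 TPM in siBACH1 (log2 changes -0.72 and -0.67), and SPRR2E at 0.388, 0.113 and 0.462 TPM. SPRR3, the SPRR protein of oral and oesophageal mucosa, was at 10.8 TPM in siControl, 10.6 TPM in sip53 and 7.42 TPM in siBACH1, and its log2 change of -0.48 in siBACH1 stayed under the threshold. SPRR1A went the other way, at 6.26, 6.10 and 7.91 TPM, with a log2 change of 0.29 in siBACH1. Of the 5 measured SPRR genes, 4 were thus below siControl in siBACH1 and 3 past 1.5-fold (SPRR2D measured only through siControl). The same 4 to 1 split held under each scaling tried. Before rescaling, 8226 of all 12437 measured genes were below siControl in siBACH1, and 3.69% were lower by 1.5-fold or more. The 6 SPRR genes summed to 41.6 TPM in siControl, 32.98 TPM in sip53 (79.3% of control) and 28.6 TPM in siBACH1 (68.8%).

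**Figure D3:**
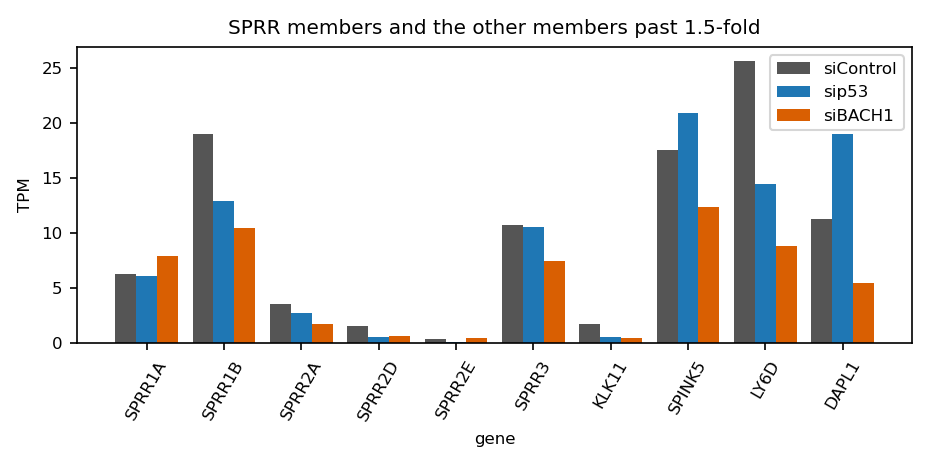
TPM in each library (1 bar per library, no error bars because there was 1 library per treatment) for the 6 SPRR genes and for KLK11, SPINK5, LY6D and DAPL1. SPRR1B steps down from 19.02 to 10.5 TPM, LY6D from 25.6 to 8.85 TPM, and DAPL1 is highest in sip53 at 18.97 TPM.

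Near-identical copies limit how far single SPRR2 values can be read. In GENCODE release 29, which need not be the annotation the authors used, 51.3% of the 31-base words of SPRR2A transcripts also occur in another gene, and 33.6% of all its words occur in SPRR2D. The share was 29.9% for SPRR2D, 32.4% for SPRR2E, 26.2% for SPRR1A and 10.7% for SPRR1B, and 0 for SPRR3. Summing copies settles the ambiguity only among the copies summed. SPRR2B, outside the sum, holds 32.8% of the words of SPRR2A and was listed at 0 in all 3 libraries. SPRR2A, SPRR2D and SPRR2E together were at 5.53 TPM in siControl, 3.40 TPM in sip53 (61.5% of control) and 2.81 TPM in siBACH1 (50.9%). SPRR1A and SPRR1B together were at 25.3, 18.99 and 18.4 TPM, or 75.1% and 72.6% of control.

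The promoters of IVL, SPRR1A, SPRR3, SPRR1B, SPRR2A and SCEL are shown, picked because each holds an AP-1 type motif, TGAGTCA, on either strand. The core of this motif also lies within the element that BACH1 and NRF2 bind with small MAF proteins. The sequences are RefSeq promoters of GRCh38.p14, from 250 bases before to 50 bases after the start of the gene, 5′ to 3′ on the gene's own strand, with each TGAGTCA (or its reverse complement TGACTCA) in capitals.
IVL (chr1:152908296-152908595, plus strand): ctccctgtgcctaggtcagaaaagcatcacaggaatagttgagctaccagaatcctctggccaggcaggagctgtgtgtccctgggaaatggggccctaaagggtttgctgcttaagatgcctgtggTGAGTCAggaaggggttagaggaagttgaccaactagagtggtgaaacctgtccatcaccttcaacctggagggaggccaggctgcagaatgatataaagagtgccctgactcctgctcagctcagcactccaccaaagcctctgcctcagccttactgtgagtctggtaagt
SPRR1A (chr1:152983831-152984130, plus strand): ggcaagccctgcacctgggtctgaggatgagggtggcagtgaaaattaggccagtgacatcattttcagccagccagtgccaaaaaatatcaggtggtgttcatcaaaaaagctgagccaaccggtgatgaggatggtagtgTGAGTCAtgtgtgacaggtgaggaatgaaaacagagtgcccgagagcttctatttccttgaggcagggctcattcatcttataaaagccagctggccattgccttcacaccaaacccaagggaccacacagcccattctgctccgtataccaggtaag
SPRR3 (chr1:153001499-153001798, plus strand): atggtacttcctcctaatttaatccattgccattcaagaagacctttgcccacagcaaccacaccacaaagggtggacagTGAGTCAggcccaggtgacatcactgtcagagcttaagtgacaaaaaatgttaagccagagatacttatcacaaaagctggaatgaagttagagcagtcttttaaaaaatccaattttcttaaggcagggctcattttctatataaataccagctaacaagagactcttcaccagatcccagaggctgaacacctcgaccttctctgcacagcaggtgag
SPRR1B (chr1:153030953-153031252, plus strand): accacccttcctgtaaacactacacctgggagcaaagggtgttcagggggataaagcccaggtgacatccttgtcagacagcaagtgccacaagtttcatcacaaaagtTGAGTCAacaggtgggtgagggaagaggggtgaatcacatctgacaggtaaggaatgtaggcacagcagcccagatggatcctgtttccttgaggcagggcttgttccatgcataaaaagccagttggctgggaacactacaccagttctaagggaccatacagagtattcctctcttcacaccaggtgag
SPRR2A (chr1:153057463-153057762, minus strand): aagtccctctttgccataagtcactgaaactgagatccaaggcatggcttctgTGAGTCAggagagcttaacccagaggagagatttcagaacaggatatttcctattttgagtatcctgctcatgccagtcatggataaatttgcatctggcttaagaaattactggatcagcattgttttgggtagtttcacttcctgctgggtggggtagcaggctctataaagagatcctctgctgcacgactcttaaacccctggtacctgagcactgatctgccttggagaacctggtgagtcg
SCEL (chr13:77535456-77535755, plus strand): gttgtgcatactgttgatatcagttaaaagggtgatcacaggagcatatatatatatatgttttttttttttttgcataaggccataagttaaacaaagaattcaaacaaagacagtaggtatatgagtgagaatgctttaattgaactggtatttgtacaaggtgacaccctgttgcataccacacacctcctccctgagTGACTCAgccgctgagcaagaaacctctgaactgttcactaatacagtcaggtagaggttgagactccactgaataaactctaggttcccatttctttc

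The first base of the motif lay 123 bases before the start in IVL, 108 in SPRR1A, 170 in SPRR3, 141 in SPRR1B, 197 in SPRR2A and 49 in SCEL. Promoters were matched for 30 of the 43 genes, and 8 of the 30 (26.7%) held the motif on either strand: the 6 shown, SBSN and EMP1. SPRR2D, SPRR2E and LY6D were among the genes without a matched promoter, so they were not searched. Among all 27305 promoters the share was 4.92%, and among 9775 promoters of genes measured here it was 3.16%. The longer form GCTGAGTCA, closer to the MAF-type element, was found in SCEL alone of the 30, and in 0.564% of all promoters. A match is only a description of these letters. Of the 7 measured genes with the motif, 5 were below and 2 above siControl in siBACH1, SPRR1B and SPRR2A past 1.5-fold, beside 8226 below among all 12437 measured genes. SPRR1B and SPRR1A, with the motif 141 and 108 bases before the start, had log2 changes of -0.81 and 0.29 there. A link between the motif and these changes was not tested.

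Transcripts of the other measured envelope genes stayed within 1.5-fold of siControl in both knockdowns. Involucrin (IVL), an early envelope precursor, was at 9.00 TPM in siControl, 8.86 TPM in sip53 and 7.36 TPM in siBACH1, with a log2 change of -0.26 in siBACH1. Periplakin (PPL) and envoplakin (EVPL) form the plakin scaffold under the membrane. PPL was at 94.5, 89.9 and 87.7 TPM and EVPL at 23.1, 20.3 and 20.2 TPM in siControl, sip53 and siBACH1, within 0.19 log2 units of control in either knockdown. Sciellin (SCEL), another envelope precursor, was higher in both knockdowns without passing the threshold, at 24.3 TPM in siControl, 32.8 TPM in sip53 and 29.7 TPM in siBACH1 (log2 changes 0.42 and 0.28). Cornifelin (CNFN) had nearly the same level in each library, at 4.62, 4.80 and 4.69 TPM.

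Of the cross-linking enzymes only TGM1, the membrane-bound keratinocyte transglutaminase, was measured. It was at 22.3 TPM in siControl, 18.3 TPM in sip53 and 22.3 TPM in siBACH1, log2 changes of -0.27 and 0.00. TGM5 lay under the minimum at 0.680, 0.723 and 0.888 TPM. The lipid barrier genes were low as well. ABCA12, which loads glucosylceramide into lamellar granules, was at 6.01 TPM in siControl, 8.42 TPM in sip53 and 7.13 TPM in siBACH1 (log2 changes 0.43 and 0.21). The lipoxygenase ALOXE3 was at 1.04, 0.919 and 1.21 TPM, and its partner ALOX12B was listed at 0.

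The kallikreins, secreted serine proteases that cleave corneodesmosomes, were not lowered as a family in siBACH1. All 15 human kallikrein genes lie in a row on chromosome 19, between 50819146 and 51084210 (GRCh38), and the transcripts came almost entirely from KLK5, KLK6, KLK7, KLK8 and KLK10 in its middle. KLK8 was the most abundant, at 138 TPM in siControl, 116 TPM in sip53 and 140 TPM in siBACH1, and KLK5, which activates other kallikreins, followed at 102, 83.2 and 97.6 TPM. KLK10 was at 88.8, 88.3 and 94.6 TPM. These 3 genes stayed within 0.30 log2 units of control in both knockdowns. KLK6 was at 45.7 TPM in siControl, 45.5 TPM in sip53 and 61.3 TPM in siBACH1. KLK7, the chymotrypsin-like enzyme of the stratum corneum, was at 20.3, 19.3 and 26.3 TPM. Both were highest in siBACH1, with log2 changes of 0.41 and 0.36 that did not reach the threshold.

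KLK11 was the exception in the family, at 1.77 TPM in siControl, 0.533 TPM in sip53 and 0.459 TPM in siBACH1. Its log2 changes were -0.85 and -0.92, and with a pseudocount of 5 TPM they were -0.29 and -0.31, short of the threshold. The same pseudocount took SPRR2D to -0.24 and -0.23. KLK13 was listed at 0 in siControl and siBACH1 and at 0.0612 TPM in sip53. Summed, the 7 kallikreins of the set were at 396 TPM in siControl, 353 TPM in sip53 (89.1% of control) and 421 TPM in siBACH1 (106%). Those 5 that were measured in both knockdowns all had a higher TPM in siBACH1 than in sip53, by 0.10 to 0.43 log2 units. Each stayed short of 1.5-fold, and the direction was the same under each scaling tried. Of all 12390 measured genes, 5957 were also higher in siBACH1 than in sip53 before rescaling. In GENCODE release 29, 36.4% of the 31-base words of KLK8 also occur in the read-through transcript AC011473.4, which holds 90.2% of the words of its neighbour KLK9, so KLK8 and KLK9 values are uncertain.

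**Figure D4:**
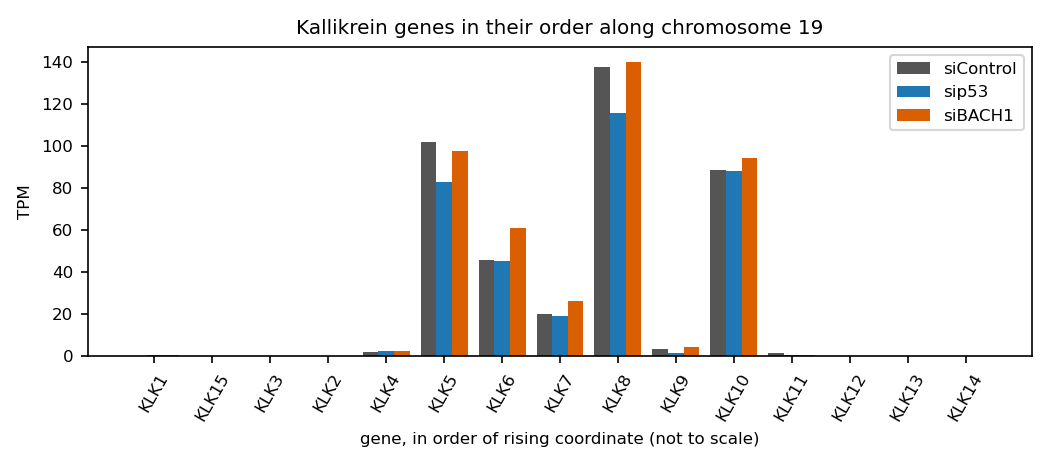
TPM in each library for the 15 kallikrein genes, placed in the order they have along chromosome 19 (1 bar per library, no error bars). KLK5, KLK6, KLK7, KLK8 and KLK10 stand out at 19.3 to 140 TPM, and every other gene of the row stays under 5 TPM.

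Protease inhibitors were the most abundant group, and 1 of them, SPINK5, differed by over 1.5-fold between the knockdowns. SPINK5, whose product LEKTI inhibits KLK5 and KLK7 (chromosome 5, 148063980 to 148137382, plus strand), was at 17.6 TPM in siControl, 20.9 TPM in sip53 and 12.4 TPM in siBACH1. Its log2 changes from control were 0.24 and -0.47, neither past 1.5-fold, and siBACH1 was 1.69-fold below sip53 (log2 change -0.71, or -0.57 and just short of the threshold with a pseudocount of 5 TPM). SLPI, which inhibits elastase and other serine proteases, was at 304 TPM in siControl, 302 TPM in sip53 and 357 TPM in siBACH1. Cystatin A (CSTA), a cysteine protease inhibitor that is itself built into the envelope, was at 301, 330 and 279 TPM, and cystatin B (CSTB) at 143, 135 and 138 TPM. Elafin (PI3), an elastase inhibitor that transglutaminases cross-link, was at 7.44, 7.96 and 8.11 TPM. CSTA, CSTB, SLPI and PI3 all stayed within 0.25 log2 units in each comparison. A2ML1 remained under the minimum at 0.678, 0.336 and 0.583 TPM.

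Corneodesmosome genes could not be compared. Desmocollin 1 (DSC1) was at 0.696 TPM in siControl, 0.493 TPM in sip53 and 0.492 TPM in siBACH1. Desmoglein 1 (DSG1) was at 0.0635, 0.0332 and 0.0158 TPM. Corneodesmosin (CDSN) reached at most 0.0907 TPM, and 93.9% of the 31-base words of its transcripts also occur in the overlapping gene PSORS1C1, which was at 2.81, 1.26 and 0.704 TPM. Reads of that locus may thus have been assigned to either gene.

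LY6D and DAPL1, from the remaining group of epithelial differentiation genes, had the largest differences among genes above 5 TPM in siControl. LY6D, a GPI-anchored surface protein of squamous epithelium (chromosome 8, 142784882 to 142786539), was at 25.6 TPM in siControl, 14.4 TPM in sip53 and 8.85 TPM in siBACH1. Its level was highest in the control and lowest in siBACH1, 2.90-fold below control (log2 change -1.43), and sip53 lay 1.77-fold below control (-0.79). Only 28 of the 12437 measured genes had a more negative change in siBACH1. DAPL1, a gene of early epithelial differentiation (chromosome 2, 158795317 to 158815990, plus strand), was at 11.3 TPM in siControl, 18.97 TPM in sip53 and 5.45 TPM in siBACH1. It was the one gene of the set that passed 1.5-fold in opposite directions, 1.69-fold higher in sip53 (0.70) and 2.06-fold lower in siBACH1 (-0.93). Between the knockdowns it differed 3.48-fold (-1.63), with 17 genes more negative of 12390. With a pseudocount of 5 TPM its change in sip53 was 0.56, just under the threshold. In GENCODE release 29, 39.3% of the 31-base words of DAPL1 transcripts occur in other genes, mostly OR7E pseudogenes, of which OR7E28P, OR7E36P and OR7E37P were listed at 0 to 0.200 TPM.

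The remaining measured genes of this group were abundant and differed less. EMP1, a tetraspan membrane protein, was at 114 TPM in siControl, 106 TPM in sip53 and 92.8 TPM in siBACH1 (log2 changes -0.11 and -0.30). LYPD3, a GPI-anchored protein of suprabasal cells, was at 29.3, 26.7 and 24.8 TPM (-0.13 and -0.23). Both had the order of LY6D, with the control highest and siBACH1 lowest, at smaller differences. All 4 measured genes of the group, LY6D, DAPL1, LYPD3 and EMP1, were below siControl in siBACH1 under each scaling tried, where, before rescaling, 8226 of all 12437 measured genes were also below it.

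Related genes outside the set showed which parts of the programme Cal-33 cells express. Of 32 other envelope precursors listed, 1 reached 1 TPM, the matrix protein ECM1 at 1.65, 1.43 and 1.64 TPM. Loricrin and all but 2 of the late cornified envelope (LCE) genes were listed at 0 in every library, and LCE1C and LCE3D reached at most 0.240 TPM. Over all the related lists, 36 of 89 listed genes were measured. Past 1.5-fold, 2 were lower and 1 higher in siBACH1, beside 3.69% lower and 1.78% higher of all measured genes. The same numbers held in sip53, beside 2.88% and 1.54%. The medians were -0.23 in siBACH1 and -0.07 in sip53, beside -0.08 and -0.07 over all measured genes. TMPRSS11D, a membrane serine protease of airway and oral epithelium, was at 4.54 TPM in siControl, 2.96 TPM in sip53 and 1.40 TPM in siBACH1 (log2 change -1.21 in siBACH1). WFDC5, a whey acidic protein family inhibitor, was at 3.40, 1.58 and 1.10 TPM, and WFDC2 of the same family at 0.684, 1.68 and 1.75 TPM. WFDC2, the 1 higher gene in both knockdowns, was measured only through those libraries, where alone it passed 1 TPM. KLK9 was at 3.53, 1.51 and 4.65 TPM, lower in sip53 (-0.85) and higher in siBACH1 than in sip53 (1.17).

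Several other proteases and inhibitors were abundant, and the 6 named next stayed within 1.5-fold in each comparison. Matriptase (ST14), which starts the epidermal protease cascade, was at 136, 118 and 111 TPM, and prostasin (PRSS8) at 59.8, 55.8 and 54.2 TPM in siControl, sip53 and siBACH1. The lysosomal proteases CTSD and CTSC were the highest of their list in siControl, CTSD at 609, 609 and 810 TPM and CTSC at 190, 183 and 227 TPM. SPINT2 (518, 476 and 487 TPM) and CST3 (180, 148 and 137 TPM) led the other inhibitors. CERS3, a ceramide synthase of the skin barrier, was at 37.8, 37.5 and 34.1 TPM. Of the 10 measured desmosome genes outside the set, 0 passed 1.5-fold, and 9 were below siControl in siBACH1, with a median of -0.36, beside 8226 below of all 12437 measured genes. JUP was at 379, 309 and 302 TPM and PERP at 362, 417 and 316 TPM.

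Stratified epithelial keratins, the filament proteins of the same cells, were set beside the envelope and desquamation genes. In siBACH1, 9 of 11 measured keratins (7 to 9 under the scalings tried) lay below siControl by 1.5-fold or more and 0 above it. Their median was -0.79. The envelope and desquamation genes had 6 of 28 lower, 0 higher and a median of -0.09. Over all measured genes, 3.69% were lower and 1.78% higher, with a median of -0.08. KRT80 was the exception among keratins at 28.2, 35.1 and 36.3 TPM. In sip53, 0 of 12 keratins passed 1.5-fold, beside 2.88% lower and 1.54% higher of all measured genes, and the keratin median was -0.02. The 16 keratins summed to 17838 TPM in siControl, 17016 TPM in sip53 and 11369 TPM in siBACH1 (63.7% of control), against 98.8% of control for the summed envelope and desquamation genes. With 1 library each, the difference between the keratins and these genes was not tested. In bulk RNA, fewer cells of a type and less RNA per cell cannot be told apart, which applies to every level given here.

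**Figure D5:**
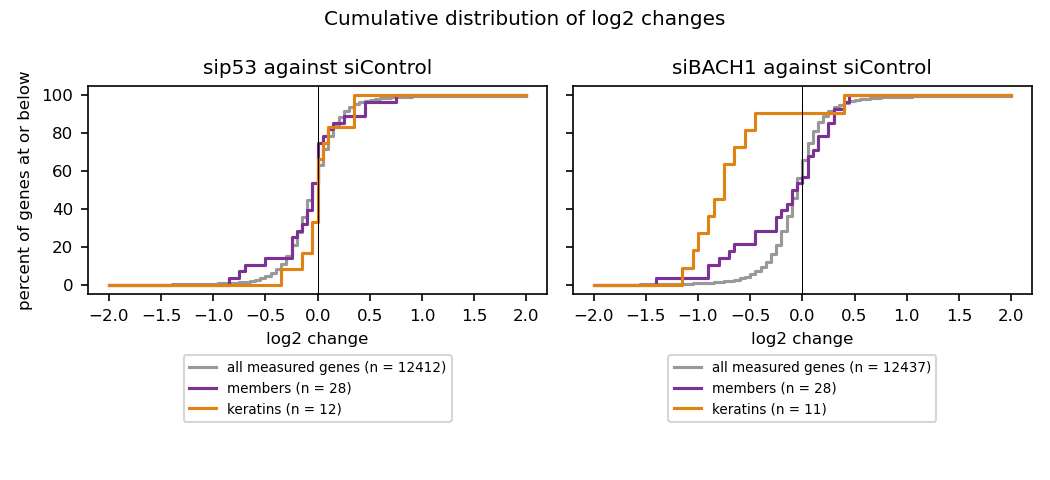
Cumulative share of genes (percent) at or below each log2 change from siControl, for all measured genes, the measured envelope and desquamation genes (labelled members) and 11 or 12 stratified epithelial keratins, with sip53 on the left and siBACH1 on the right. In siBACH1 the keratin curve lies far to the left, at a median of -0.79, and the curve of the envelope and desquamation genes lies farthest from that of all genes in its lower part, where LY6D, DAPL1, KLK11 and 3 SPRR genes lie.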

How the data were processed

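Per the labels, RNA of Cal-33 cells was sequenced as 1 library for each of 3 siRNAs. The deposited values are TPM per gene symbol, per the file headers. The submitters' processing notes name bcl2fastq 2.20 and kallisto 0.44.0, and the builds GRCh38, GRCm38 and mm10 with no role for each. Not given in the sources used here: annotation, gene-level summing and strand. kallisto divides reads among similar transcripts, so values of paralogs and of overlapping or antisense genes are uncertain. Depth is unknown, and replicates do not exist in these 3 libraries.

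From the deposited TPM, log2((TPM + 1)/(TPM + 1)) was computed in Python 3.11.15 with pandas 2.3.3 and numpy 2.4.6 for 3 comparisons, over genes at 1 TPM or more in 1 or both libraries, and counted at 1.5-fold. Folds printed beside TPM are ratios of TPM with nothing added. The comparison was tested on simulated data. The rule for named genes took those of the set past 1.5-fold and the 2 of highest siControl TPM in each role group, and, of related genes, up to 4 per list past 1.5-fold and the highest 2. The other genes of the set are given for completeness, and ST14, PRSS8, KRT80, LCE1C and LCE3D were chosen after their values were seen. The genes, lists and settings were chosen with earlier results of these data known. Shared sequence was counted as 31-base words of GENCODE release 29 transcripts on both strands, positions are from RefSeq on GRCh38.p14, and promoters are RefSeq's.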

Additional observations from a re-analysis of the deposited data

How the results depend on the processing

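No paired analysis was possible because each treatment had 1 library. The median log2 change of the envelope and desquamation genes moved by less than 0.1 in all 3 comparisons under every alternative tried. The following counts at 1.5-fold moved by more than 1.5 times. Shares over all measured genes under the same setting are in brackets. Against siControl, the 6 lower of 28 genes of siBACH1 became 3 of 28 with a pseudocount of 5 TPM (0.772%) and 3 of 23 with a minimum of 5 TPM (2.40%). At a fold of 2, 1 of 28 was left, LY6D. They became 3 of 23 (3.69%) without the genes that share over 20% of their 31-base words with another gene, an alternative chosen after seeing the data. The 3 lower genes of sip53 became 1 of 28 with a pseudocount of 5 TPM (0.556%), 1 of 23 with a minimum of 5 TPM (1.68%) and 0 of 28 at a fold of 2 (0.572%). The 1 higher gene of sip53, DAPL1, became 0 of 28 with a pseudocount of 5 TPM (0.209%) and 0 of 28 at a fold of 2 (0.395%). The count became 0 of 23 (1.54%) without the genes with shared words, of which DAPL1 is one. At a threshold 25% above equality, 3 of 28 genes were higher (5.24% of all measured genes). At that threshold siBACH1 had 2 higher genes against siControl (5.53% of all genes), and 3 higher and 5 lower against sip53 (9.62% and 11.1% of all genes). The 3 lower genes of siBACH1 against sip53 became 1 of 26 with a pseudocount of 5 TPM (0.847%) and 1 of 26 at a fold of 2 (0.759%), DAPL1. At a fold of 2, 0.820% of all measured genes were lower in siBACH1 than in siControl. A pseudocount of 0.1 TPM, no filter, rescaling, leaving out mitochondrially encoded and ribosomal protein genes, summing SPRR copies, and the correction for GC content and length kept every count within 1.5 times. Under rescaling, that removal or the correction, the sign of small changes turned for 9 genes in sip53 (IVL, SPRR1A, SPRR3, PPL, ALOXE3, KLK6, KLK7, KLK10 and SLPI) and for KLK5 and CSTB in siBACH1, all within 0.09 log2 units of 0 against siControl. The unknown depth limits the genes near 1 TPM most, SPRR2D, KLK11 and ALOXE3.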
